A study of Larimichthys polyactis and Larimichthys crocea with 36 samples.

Results

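Gene models that the annotation does not place on a chromosome were followed through 3 tissues (brain, liver, muscle) of 4 kinds of croaker. LP is the small yellow croaker, Larimichthys polyactis, and LC the large yellow croaker, Larimichthys crocea. LPC and LCP are the reciprocal hybrids between them. The expression table lists 24212 IDs. Of the 21430 that start with evm, 21317 carry 1 of 24 chromosome numbers, and the other 113 carry a scaffold number in its place. The rule that picks these 113 unplaced models reads only their names, although the set itself was proposed with earlier results of these data known. They lie on 27 scaffolds, of which 9 hold a single model, and 2 of the IDs join a pair of neighbouring models in 1 name.

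Each of the 12 groups, 4 kinds of fish by 3 tissues, had 3 libraries. The labels give no age, sex or treatment, do not say which species was the mother of either hybrid, and leave unsaid whether each library stands for a fish of its own. All p-values therefore measure the spread between libraries, part of which may be technical. The files do not pair the IDs with gene names or functions, so the models are called by ID, without the shared prefix evm.model. after first mention, and the tissue labels could not be checked against marker genes.

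A genome assembly is built from pieces called contigs and scaffolds, and a linkage map or chromatin contacts are then used to order them into chromosomes. Pieces that stay unplaced are often short, rich in repeats, or second copies of a stretch already present elsewhere, such as the other haplotype of a variable region or a recent duplication. A read that matches such a copy and its counterpart equally well can be counted at either, at both or at neither, depending on the software, and in a cross between species the fit of each copy to the reads can differ between the parents. The models on these pieces are commonly dropped from maps and synteny plots, although they can be expressed genes.

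Values are FPKM, fragment numbers corrected for the length of the transcript and the size of the library, as the authors computed them. How many fragments stand behind a value is unknown. A brain library had 15122 to 17177 IDs at an FPKM of at least 1. Liver libraries had 9437 to 11839 and muscle libraries 7179 to 10645, and among the latter the 3 LC libraries were at the bottom of the range (7179 to 8077). In whole tissue, fewer cells of a type and less RNA per cell cannot be told apart.

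Most unplaced models were low. All 113 were above 0 in at least 1 library, but 34 were above 0 in fewer than 6 of the 36, and 51 never reached an FPKM of 1. The 62 that did were 54.9% of the unplaced models, against 87.4% of the placed ones (18639 IDs). The median of the mean FPKM over all libraries was 0.217 for unplaced and 3.63 for placed models. A mean under 0.1 was found for 44.2% of unplaced and 11.9% of placed models, a mean from 1 to under 10 for 21.2% and 46.1%, and a mean from 10 to under 100 for 12.4% and 22.5%. At the top of the range stood 1 unplaced model at or above 100. Low level was not general, since 23 models were above 0 in all 36 libraries and 9 were at 1 or more in every library.

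**Figure D1:**
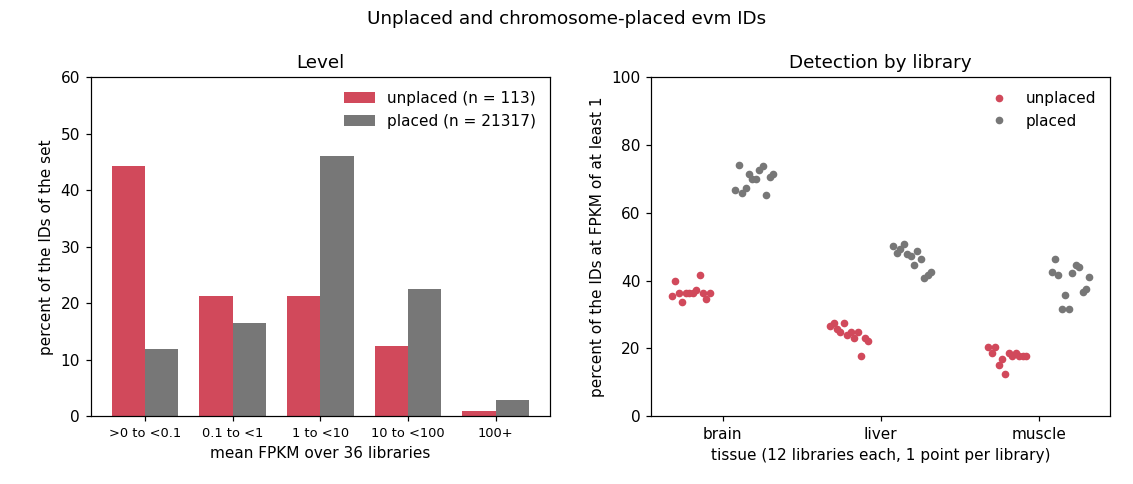
Left, percent of unplaced (n = 113) and chromosome-placed (n = 21317) evm IDs in each class of mean FPKM over the 36 libraries. Right, percent of each set at an FPKM of at least 1, with 1 point per library; unplaced models lie between 33.6% and 41.6% in brain, between 17.7% and 27.4% in liver and from 12.4% to 20.4% in muscle, below the placed models in every library.

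In a single brain library, 38 to 47 unplaced models were at an FPKM of at least 1, with a median of 41. The range was 20 to 31 in liver, with a median of 28, and 14 to 23 in muscle, with a median of 20. Placed models followed the same order of tissues, with 65.4% to 74.2% of them at 1 or more in brain libraries, 40.7% to 50.9% in liver libraries and 31.6% to 46.5% in muscle libraries. The unplaced models together held 0.163% to 0.228% of the FPKM sum of a brain library, 0.0345% to 0.0882% of a liver library and 0.0196% to 0.0463% of a muscle library. Of the FPKM summed over members and libraries, 44.2% belonged to only 2 models, evm.model.Scaffold49.4 and evm.model.Scaffold56.3.

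Scaffolds differed in how much of their content was expressed. On scaffold 49 all 8 models reached an FPKM of 1, and all 8 had their highest tissue mean in brain. Scaffold 52 had 8 of 10 models at that level, 7 of them highest in brain, and scaffold 51 had 4 of 5, all highest in brain. Scaffold 36 had 4 of 5 and scaffold 5 had 8 of 11. Scaffold 1, the one with the most models, had 8 of 20. At the other end, none of the 5 models of scaffold 3 reached an FPKM of 1, and the counts were 1 of 7 on scaffold 23, 1 of 5 on scaffold 17 and 2 of 9 on scaffold 4. Brain was the highest tissue for 79.5% of unplaced and 76.0% of placed models with a mean FPKM of at least 1, on the deposited scale. Among 37 models with a sufficient level, the median Pearson correlation over the 12 group means was 0.784 for the 54 pairs on 1 scaffold and 0.606 for the 612 pairs on different scaffolds. The 37 have a mean FPKM of at least 1, and of unplaced models with an identical profile (described next) only 1 was kept. Scaffold1.40 and Scaffold5.20, equal in part of the libraries, are both among them. The pairs share libraries and models, so the values are given as a description.

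**Figure D2:**
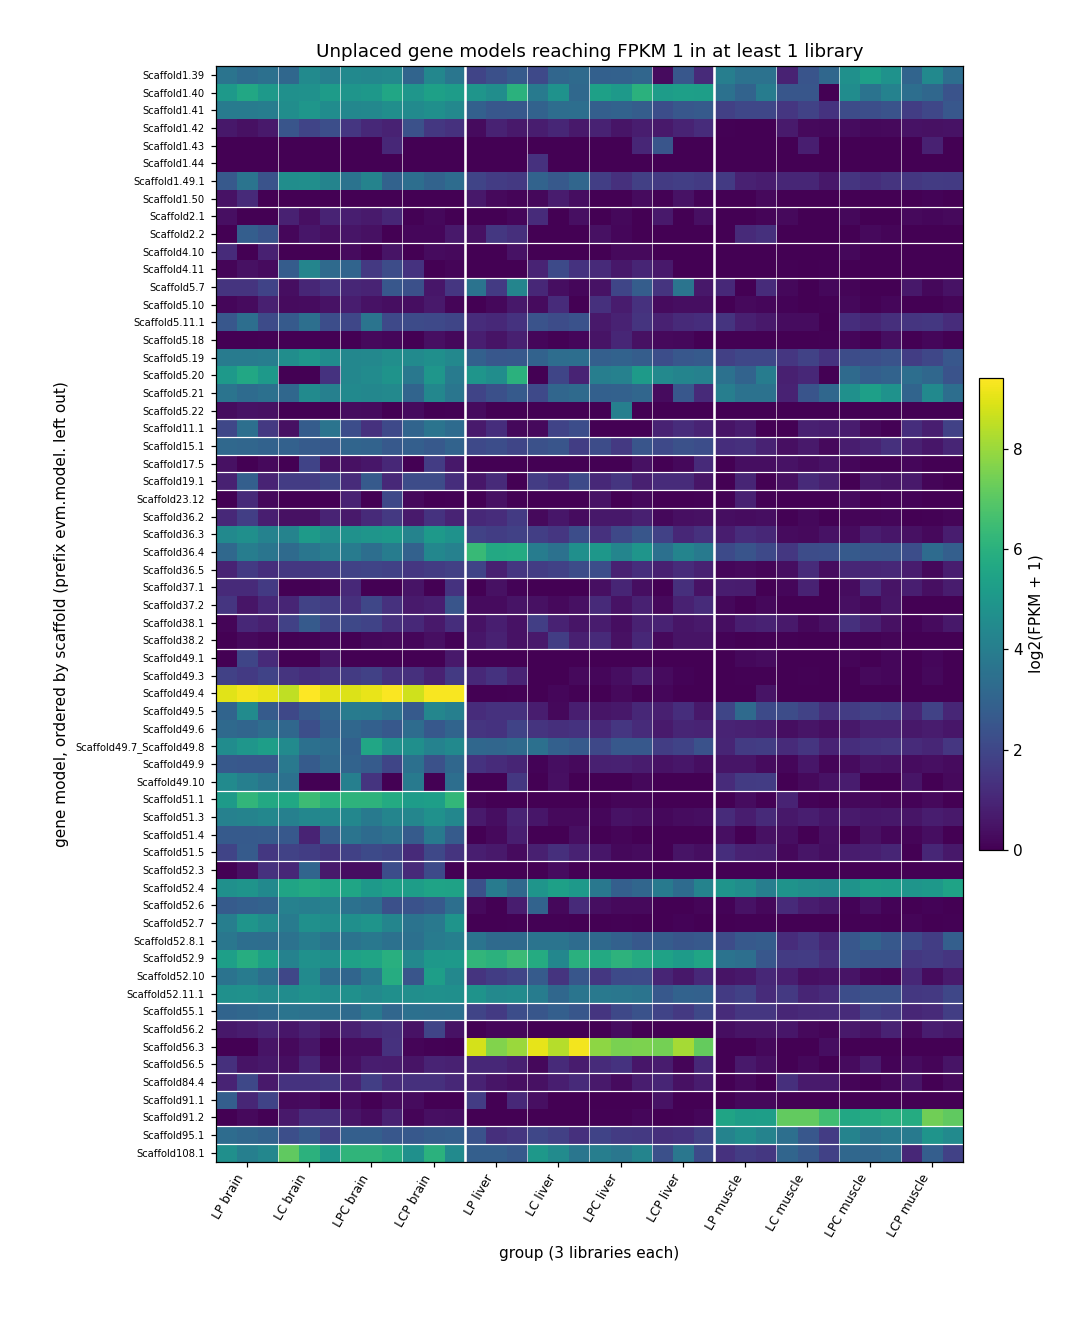
Heat map of log2(FPKM + 1) for the 62 unplaced models that reached an FPKM of 1, 1 row per model ordered by scaffold (thin lines between scaffolds) and 1 column per library, with brain, liver and muscle from left to right. Scaffold49.4, Scaffold56.3 and Scaffold91.2 are bright only in brain, liver and muscle respectively, and the rows of Scaffold1.39 and Scaffold5.21, and of Scaffold1.41 and Scaffold5.19, are the same.

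A feature of the unplaced set was exact sharing of values. Among models that reached an FPKM of 1, 5 of the 62 unplaced ones (8.06%) had the same value as another ID in all 36 libraries, to both printed decimals. The corresponding count was 9 of 18639 placed models (0.0483%) and 68 of the 2611 IDs that start with BGI_novel (2.60%). Shared profiles joined scaffolds 1 and 5. Scaffold1.39 and Scaffold5.21 were identical, with a mean FPKM of 11.5, as were Scaffold1.41 and Scaffold5.19, with a mean of 10.01. Another such pair on the same scaffolds, Scaffold1.45 and Scaffold5.17, was above 0 in only 7 libraries, with a mean of 0.0267. The model numbers run in opposite order, rising on scaffold 1 where they fall on scaffold 5. Among models that reached an FPKM of 1, the other pair linked Scaffold51.5 to a placed model, evm.model.Chr9.1247, at a mean of 1.26. With no minimum level, 10 of 113 unplaced models (8.85%) and 0.694% of placed models shared all values. The further sets, each above 0 in 1 library and at or under 0.19, linked unplaced to placed models. They joined Scaffold4.14 to evm.model.Chr15.344, Scaffold3.21 to evm.model.Chr7.1134 and evm.model.Chr10.743, and Scaffold4.9 to evm.model.Chr4.237. Counting each identical profile once leaves 110 unplaced models, and levels cannot be assigned to 1 ID of a pair or the other.

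Between the shared pairs sat a pair that was identical in 1 species and not in the other. Scaffold1.40 and Scaffold5.20 had equal FPKM in all 9 LP libraries, with means of 38.4 ± 9.74 for brain, 38.8 ± 21.9 for liver and 10.6 ± 3.74 for muscle (SD, n = 3 libraries here and throughout). In LC they parted. Scaffold1.40 stood at 25.5, 26.4 and 35.3 in the LC brain libraries, where Scaffold5.20 was listed at 0 in 2 libraries and at 1.59 in LC 3. In LC liver the means were 16.3 ± 9.66 for Scaffold1.40 and 1.27 ± 1.47 for Scaffold5.20, and in LC muscle 3.13 ± 2.71 and 0.61 ± 0.548. The species' libraries of Scaffold5.20 did not overlap in any tissue.

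Both hybrids carried Scaffold5.20 at intermediate levels. Its mean was 23.3 ± 4.08 in LPC brain and 18.7 ± 9.48 in LCP brain, 22.0 ± 10.4 and 18.4 ± 2.11 for the livers, and 7.19 ± 1.29 and 7.25 ± 2.70 for the muscles. These 6 means came to 92.0% to 129% of the mean of the parental FPKM. Outside LCP muscle, the ratio of Scaffold5.20 to Scaffold1.40 in single hybrid libraries ran from 0.373 to 0.737, between the ratio of 1 in LP and the highest ratio of 0.227 in LC, where LC muscle 3 was at 0 for both. The exception was LCP muscle, where all 3 libraries gave the models equal values, as in LP.

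**Figure D3:**
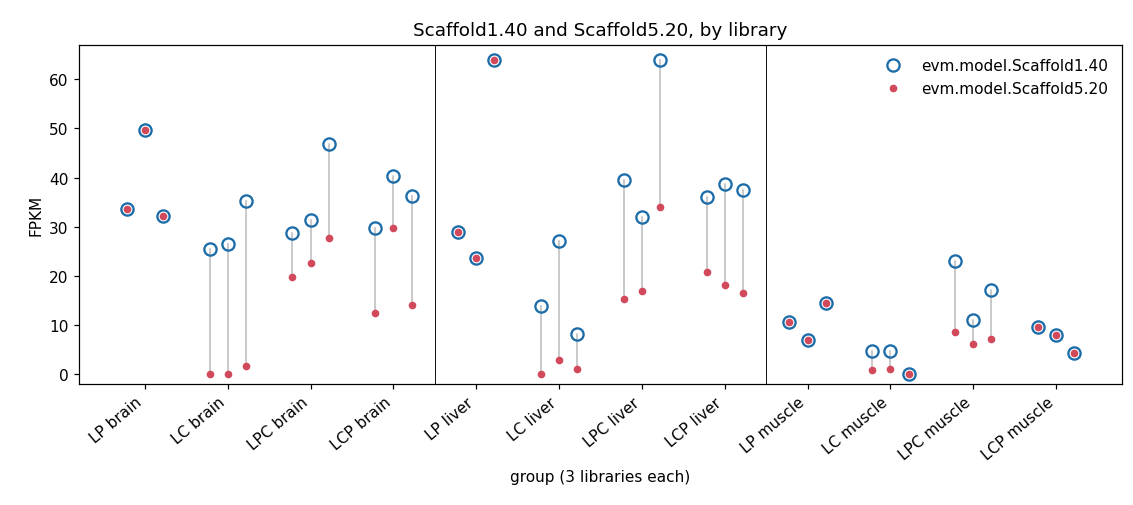
FPKM of Scaffold1.40 (open circles) and Scaffold5.20 (filled points) in each of the 36 libraries, joined by a line within a library, with tissues separated by vertical lines. The symbols coincide in the 9 LP libraries and the 3 LCP muscle libraries, Scaffold5.20 lies at or below 3 FPKM in every LC library, and its mean in each hybrid group lies between the LP and LC means of that tissue. Both models are also at 0 in LC muscle 3.

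Tissue patterns among the more abundant models included 3 that were nearly confined to a tissue. Scaffold49.4 had a mean of 555 ± 43.9 in LP brain, 523 ± 159 in LC brain, 561 ± 85.3 in LPC brain and 567 ± 128 in LCP brain, and no liver or muscle library exceeded 0.4. The 4 kinds of fish overlapped in brain. Scaffold56.3 was a liver model, at 300 ± 132 in LP, 489 ± 142 in LC, 198 ± 21.0 in LPC and 201 ± 74.0 in LCP, with 1.52 as its highest value in any brain or muscle library. Scaffold91.2 was found in muscle, at 39.4 ± 4.20 in LP, 124 ± 28.3 in LC, 54.9 ± 6.56 in LPC and 119 ± 57.3 in LCP, and reached at most 1.38 elsewhere. A lower brain model, Scaffold51.1, ranged from 33.8 to 85.7 over the 12 brain libraries and stayed at or under 0.9 in the other tissues.

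Differences between tissues were tested with limma on log2(FPKM + 1), fitted to all IDs with 3 or more of the 36 libraries at or above an FPKM of 1 and called at a Benjamini-Hochberg adjusted p under 0.05. The filter left 54 of the 113 unplaced models. Against liver, 44 were called in brain, 40 higher and 4 lower. Of all IDs tested 88% were called, 74.7% higher and 13.2% lower. Against muscle, 48 were called in brain, 46 higher and 2 lower, beside 87.8% of all IDs, 79.7% higher and 8.14% lower. Between liver and muscle 39 were called, 31 higher in liver and 8 lower, beside 59.9% of all IDs, 37.7% higher and 22.2% lower. With identical profiles counted once, 42, 47 and 37 of 52 models were called in these 3 contrasts. The median brain-minus-liver difference was 1.0 for unplaced models and 1.36 for all IDs, and the brain-minus-muscle medians were 1.37 and 1.46. With a mean FPKM from 1 to under 100, 89.5% of 38 unplaced and 91.5% of 14613 placed models were called for brain minus liver. These shares were 92.1% and 91.6% for brain minus muscle, and 78.9% and 63.1% for liver minus muscle.

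The direction of these counts depended on how libraries were scaled. FPKM gave brain higher values for most IDs of the table. With libraries set to a common level by the median ratio, the brain-minus-liver calls of the unplaced models were 15 higher and 16 lower, and the brain-minus-muscle calls were 26 higher and 10 lower. After quantile normalization these became 11 higher and 22 lower, and 18 higher and 14 lower. Of all IDs tested, the rescaled fits called 78.0% and 75.8% in these contrasts by median ratio, and 77.1% and 74.7% by quantiles. The count called higher in brain than in both other tissues was 36 as deposited, 13 after median-ratio scaling and 9 after quantile normalization. For liver the counts were 4, 15 and 18, and for muscle 2, 6 and 9. Counts by direction for placed models and all IDs were not tabulated after rescaling. The median brain-minus-liver difference of all IDs was 1.36 as deposited, 0.19 by median ratio and 0.02 by quantiles. That of the unplaced models was 1.0, -0.06 and -0.15. As deposited, 66.7% of unplaced and 71.0% of placed models tested were higher in brain than in both other tissues.

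The tissue-bound models did not turn with the scaling. For Scaffold49.4 the brain-minus-liver difference was 9.03 with SE 0.09 as deposited (limma, adjusted p = 1.02e-33), 7.66 after median-ratio scaling and 9.16 after quantile normalization. Scaffold56.3 was higher in liver than in muscle by 8.02 with SE 0.14 (limma, adjusted p = 5.58e-28), and 8.46 and 7.79 under the same alternatives. Scaffold91.2 differed between liver and muscle by -6.17 with SE 0.13 (limma, adjusted p = 2.27e-26), and by -7.08 and -6.32 when rescaled. Among models with a mean FPKM of at least 1, the index tau, which runs from 0 for even levels over the 3 tissues to 1 for a model found in a single tissue, had a median of 0.780 in 39 unplaced and 0.827 in 15244 placed models. It exceeded 0.9 in 33.3% of the former and 36.7% of the latter. By class these shares were 62% and 56.5% under 0.1, and 16.7% and 45.6% from 0.1 to under 1. They were 37.5% and 36.2% from 1 to under 10, and 21.4% and 36.1% from 10 to under 100, a class with 14 unplaced models. The differences were not tested. A model above 0 in a single library has a tau of 1 by definition, so the shares under 0.1 cannot be read as tissue confinement. In that class the median of the mean FPKM was 0.0111 for unplaced and 0.0256 for placed models.

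The parental species were compared within each tissue to ask how far they differ, with the 12 libraries of the tissue in 1 limma fit. IDs entered with 3 or more of the 12 libraries at or above an FPKM of 1. Differences are LC minus LP of log2(FPKM + 1), and for low values this scale shrinks the change. In all, 52 unplaced models entered in at least 1 tissue and 20 in all 3. Of these 52, 24 (46.2%) were called in at least 1 tissue, beside 36.5% of the 17380 placed models tested. A single tissue gave the call for 18 (34.6%, and 32.6% of placed models) and a pair of tissues for 5 (9.62% and 3.59%). Scaffold5.20 was called in all 3, as were 0.299% of placed models. The difference between these shares was not tested, and identical models count separately here.

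In brain, 9 of 47 models tested were called, 7 higher and 2 lower in LC. The identical models Scaffold1.41 and Scaffold5.19 are both among the 9, and counting identical profiles once gave 8 of 45. The share of all IDs called was 3.42%, with 1.68% higher and 1.74% lower. Restricted to a mean FPKM from 1 to under 100, the calls were 7 of 36 unplaced models (19.4%) and 2.36% of 13944 placed models. Identical models are counted separately in this class. The largest rise was that of Scaffold4.11. It stood at 0.1, 0.35 and 0.2 in LP brain and at 5.68, 18.4 and 8.53 in LC brain, so every LC library was above every LP library, and the difference was 3.15 with SE 0.50 (limma, adjusted p = 0.00715). Scaffold1.42 had values of 0.53, 0.35 and 0.58 in LP and 4.62, 2.84 and 3.75 in LC, a difference of 1.66 with SE 0.31 (limma, adjusted p = 0.0154).

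The 2 models lower in LC brain were Scaffold5.20 and Scaffold91.1. For Scaffold5.20 the difference was -4.82 with SE 0.41 (limma, adjusted p = 1.83e-04). In the LP libraries of every tissue it equals Scaffold1.40, so its LP level cannot be assigned to it alone, here or below. The brain sum of this pair was 76.9 ± 19.5 in LP and 29.6 ± 6.31 in LC. Scaffold91.1 had 6, 1.02 and 2.67 in LP brain and at most 0.21 in the LC, LPC and LCP brain libraries, a difference of -1.73 with SE 0.38 (limma, adjusted p = 0.0372). The hybrids thus lay with LC for this model. In LP liver it was listed at 2.17, 0 and 1.14. In brain Scaffold91.1 reached an FPKM of 1 only in the LP libraries, so it passed the filter through the group where it was high. Without the filter the call was kept (limma, adjusted p = 0.0282).

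The brain count changed when single libraries were left out. The share of all IDs called was not tabulated for such fits, here or below. A loss particular to unplaced models is therefore not shown. The count fell to 2 without LC 1, LP 1 or LP 3, and to 3 without LC 2 or LC 3. It was 4 without LCP 1, LCP 3 or LPC 1, and 5 without LPC 2. The call of Scaffold4.11 held in all 12 of these fits, that of Scaffold1.42 was lost in 4, without LC 1, LC 3, LP 1 or LP 3, and that of Scaffold91.1 was lost in 8 of the 9 in which it passed the filter. Quantile normalization also ended the calls of Scaffold1.42 (limma, adjusted p = 0.0606) and Scaffold91.1 (0.0629).

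In liver, 10 of 32 models tested were called, 6 higher and 4 lower in LC, beside 15.6% of all IDs, 8.07% higher and 7.52% lower. In the class from 1 to under 100, 9 of 28 unplaced (32.1%) and 13.0% of 10288 placed models were called. Scaffold52.4 had values of 3.91, 14.2 and 7.98 in LP liver and 29.1, 39.9 and 32.9 in LC liver, with no overlap, and differed by 1.98 with SE 0.40 (limma, adjusted p = 0.00805). Scaffold108.1 had 6.2, 6.17 and 5.17 in LP and 31.2, 22.0 and 12 in LC, a difference of 1.64 with SE 0.42 (limma, adjusted p = 0.0246). This call was lost without LC 1, LC 2 or any 1 of the LP libraries.

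Lower in LC liver were Scaffold5.20, by -4.21 with SE 0.50 (limma, adjusted p = 3.83e-04), and Scaffold36.4. The latter stood at 80.0, 50.8 and 53.4 in LP liver and at 14.6, 10.5 and 25.01 in LC liver, a difference of -1.87 with SE 0.34 (limma, adjusted p = 0.00493). Its libraries did not overlap in liver, while in brain it was at 11.5 ± 3.50 in LP and 12.1 ± 3.47 in LC. Scaffold4.11, listed at 0 in all 3 LP liver libraries, was at 0.91, 3.38 and 1.62 in LC liver. The liver count was 6 without LP 1.

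In muscle, 12 of 22 models tested were called, 2 higher and 10 lower in LC, beside 51.5% of all IDs, 3.05% higher and 48.5% lower. With identical profiles counted once, the muscle count was 11 of 20. The median difference of all IDs there was -0.64, and that of the unplaced models was -0.52. In the class from 1 to under 100 the shares called were 54.5% of the 22 unplaced and 53.1% of 9272 placed models. After median-ratio scaling the median of all IDs was -0.05 and 6 unplaced models were called, 3 higher and 3 lower, with the same split after quantile normalization. The shares of all IDs called were then 21.3% and 24.2%. The muscle count was also 6 without LP 1.

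Scaffold91.2 was higher in LC muscle under each scaling. Its values were 44.2, 36.5 and 37.4 in LP and 142, 140 and 91.6 in LC, which do not overlap. The difference was 1.61 with SE 0.37 as deposited (limma, adjusted p = 0.00458) and 2.54 after median-ratio scaling. The other model called higher, Scaffold108.1, had a difference of 1.01 with SE 0.40 (limma, adjusted p = 0.0491). It was larger and still called after median-ratio scaling (1.74, limma, adjusted p = 0.014) and quantile normalization (1.96, limma, adjusted p = 0.00689). Its adjusted p was 0.0566 with the replicate number as a block, 0.0905 without a filter and 0.0522 with a pseudocount of 0.1. Over the fits that left out 1 library it was at most 0.177, and 9 of these lost the call.

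Scaffold5.20 was also lower in LC muscle, by -2.87 with SE 0.34 as deposited (limma, adjusted p = 1.93e-04) and by -2.41 after median-ratio scaling. Scaffold1.40 had 10.5, 6.96 and 14.4 in LP muscle and 4.71, 4.67 and 0 in LC muscle. Its difference of -1.82 with SE 0.58 (limma, adjusted p = 0.0217) was not called after median-ratio scaling, with an adjusted p of 0.25, nor without LC 3, LP 1 or LP 3.

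**Figure D4:**
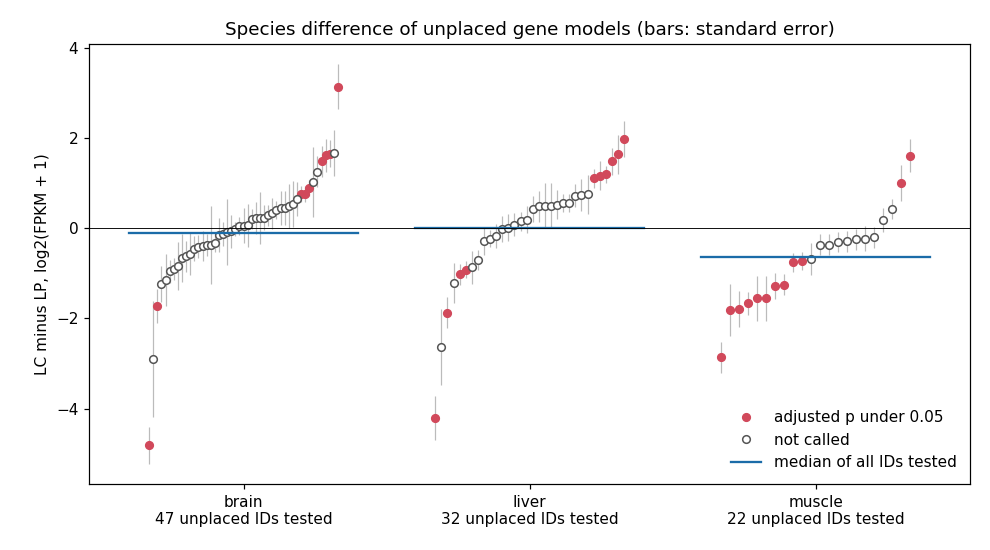
LC minus LP difference on the log2(FPKM + 1) scale for each unplaced model tested in brain (47), liver (32) and muscle (22), sorted within a tissue, with bars for the standard error and filled points for an adjusted p under 0.05. The blue line is the median of all IDs tested, at -0.10 (brain), 0.01 (liver) and -0.64 (muscle). The lowest point in each tissue is Scaffold5.20.

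Whether the species difference itself differed between tissues was tested in the fit to all 36 libraries. Between brain and liver 5 of 54 unplaced models were called, all with a higher LC-minus-LP difference in brain, beside 5.53% of all IDs called and 2.84% called higher. That count was 2 without LP liver 1 and 3 without LC liver 2, LC brain 2, LC brain 3, LP brain 1 or LP brain 3. Between brain and muscle 9 were called, 7 higher and 2 lower, beside 11% of all IDs, 9.63% higher and 1.33% lower. Between liver and muscle 15 were called, 12 higher and 3 lower, beside 17.6%, with 15.6% higher and 2.04% lower. With identical profiles counted once, 5, 8 and 13 of 52 models were called in these 3 tests. Rescaling moved the splits against muscle, to 1 higher and 2 lower for brain and to 2 higher and 7 lower for liver after median-ratio scaling. Scaffold36.4 had close levels in brain and separate ones in liver. Its LC-minus-LP difference was higher in brain than in liver by 1.93 with SE 0.49 (limma, adjusted p = 0.0154). That call was lost without LC brain 3, LP brain 1, LC liver 2 or LP liver 1.

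The hybrids were compared with the mid-parent, which is halfway between the log2 means of the parents, since the series concerns hybrids and their parents. In brain, 0 of 47 unplaced models were called by limma, beside 0.0502% of all IDs, and 4 had an unadjusted p under 0.05. The share of all IDs under that unadjusted p was not tabulated. In liver 9 of 32 were called, 1 higher and 8 lower, beside 32.5% of all IDs, 2.64% higher and 29.9% lower. In muscle 12 of 22 were called, 11 higher and 1 lower, beside 47.2% of all IDs, 42.8% higher and 4.42% lower. Counting identical profiles once gave 9 of 30 in liver and 10 of 20 in muscle. The medians of all IDs were -0.35 in liver and 0.38 in muscle, and those of the unplaced models were -0.31 and 0.51. After median-ratio scaling 2 models were called in liver, both higher, and 4 in muscle, 1 higher and 3 lower, and quantile normalization gave the same counts. All-ID shares were then 7.58% in liver and 36.8% in muscle by median ratio, and 7.38% and 31.1% by quantiles. The muscle count was 6 without LPC 3 and 7 without LCP 3, LP 3 or LPC 2.

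Scaffold56.3, the liver model, was below the mid-parent in hybrid liver. Its libraries read 449, 196 and 255 in LP, 536, 329 and 600 in LC, 222, 183 and 189 in LPC, and 174, 284 and 143 in LCP. The hybrid libraries were all under the LC libraries and overlapped those of LP. The difference was -0.90 with SE 0.25 as deposited (limma, adjusted p = 0.0221). It was -0.42 after median-ratio scaling, with an adjusted p of 0.326, and the call was also lost without LC 1 or LCP 3.

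Scaffold49.7_evm.model.Scaffold49.8, an ID that joins a pair of models, was at 8.0 ± 0.422 in LP liver, 7.24 ± 2.50 in LC, 4.44 ± 1.11 in LPC and 3.09 ± 1.01 in LCP. All 6 hybrid libraries were below all 6 parental ones. The difference from the mid-parent was -0.87 with SE 0.18 (limma, adjusted p = 0.00727), and -0.48 after median-ratio scaling with an adjusted p of 0.0869. The single call above the mid-parent in liver, Scaffold5.20 at 1.28 with SE 0.35 (limma, adjusted p = 0.0205), became 0.10 with an adjusted p of 0.868 when the mean of the parental FPKM was the reference.

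In muscle, the identical models Scaffold1.39 and Scaffold5.21 stood above the mid-parent. They read 15.2, 10.8 and 10.8 in LP, 0.88, 4.45 and 7.81 in LC, 25.2, 39.2 and 27.0 in LPC, and 7.2, 21.4 and 9.66 in LCP. The LPC libraries were above both parents, while those of LCP overlapped both. The difference was 1.36 with SE 0.36 (limma, adjusted p = 0.00837), and 1.0 after median-ratio scaling with an adjusted p of 0.0658. The model below the mid-parent was Scaffold49.10, at 1.22, 2.11 and 2.17 in LP muscle and at most 0.64 in any LC or hybrid muscle library. Its difference of -0.61 with SE 0.17 (limma, adjusted p = 0.0103) kept its call under both rescalings, and had an adjusted p of 0.0634 with a pseudocount of 0.1. In muscle Scaffold49.10 reached an FPKM of 1 only in the LP libraries, so it passed the filter through the group where it was high. Without the filter the call was kept (limma, adjusted p = 0.0206).

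For the models called between the species, the hybrid means were placed between the parental ones. In brain the LPC mean lay between them for 9 of 9 models and the LCP mean for 8 of 9. In liver the counts were 8 of 10 for LPC and 5 of 10 for LCP, and in muscle 6 of 12 and 7 of 12. Identical models count separately in the brain and muscle counts. The same count was not made for placed models or all IDs, nor after rescaling, so these counts show no trait of the unplaced models. As deposited, the median of all IDs against the mid-parent was -0.35 in liver and 0.38 in muscle, which also moves single models. Scaffold4.11 in brain was at 7.25, 1.99 and 3.59 in LPC and at 1.58, 0 and 0.1 in LCP, so that the LPC libraries were all above those of LCP. For Scaffold91.2 in muscle the order was the other way, with 48.6, 54.4 and 61.7 in LPC and 54.9, 164 and 139 in LCP, which overlap. Scaffold52.4 in liver was at 8.82 ± 3.42 in LPC and 13.2 ± 4.34 in LCP, within or near the LP range of 3.91 to 14.2 and below every LC library.

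**Figure D5:**
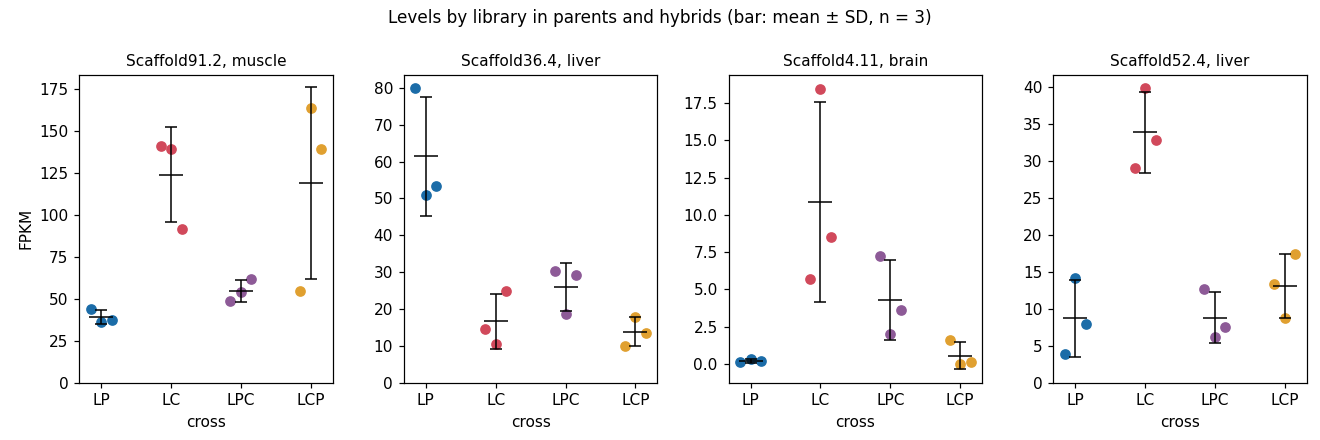
FPKM by library (points) with mean and SD (bars, n = 3) for Scaffold91.2 in muscle, Scaffold36.4 in liver, Scaffold4.11 in brain and Scaffold52.4 in liver. LP and LC libraries do not overlap in any panel. The hybrids sit near LP for Scaffold52.4 and near LC for Scaffold36.4, in each case the lower parent. Values are as deposited, where the median of all IDs in hybrid liver was -0.35 against the mid-parent.

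The reciprocal hybrids were compared directly, and no unplaced model was called by limma in brain, liver or muscle, beside 0%, 0.239% and 4.78% of all IDs. An unadjusted p under 0.05 was found for 3, 9 and 6 models. That share was not tabulated for all IDs, so these counts show no trait of the unplaced models. The median LPC-minus-LCP difference of all IDs was 0.09, 0.33 and 0.33, and that of the unplaced models 0.06, 0.36 and 0.20. After median-ratio scaling the medians of all IDs were -0.006, 0.004 and -0.013. In muscle 1 model was called without LCP 1, LCP 2 or any 1 of the LP libraries, which share the estimate of spread. For Scaffold4.11 in brain the LPC-minus-LCP difference was 1.77 with SE 0.50 (limma, adjusted p = 0.984). The nearest to a call was Scaffold52.9 in muscle, at 4.72 ± 0.467 in LPC and 1.90 ± 0.203 in LCP, with a difference of 0.98 with SE 0.26 (limma, adjusted p = 0.0501). Its LP and LC means in that tissue were 8.61 ± 3.31 and 1.91 ± 0.404.

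Some models varied between libraries of a group in the same way in every tissue. In LC, Scaffold108.1 was highest in the library numbered 1 in brain, liver and muscle, at 137, 31.2 and 7.46, and lowest in that numbered 3, at 30.1, 12 and 2.56. In LCP it was highest in number 2 throughout, at 63.1, 12.3 and 5.95. Scaffold1.39 was lowest in LC number 1 in each tissue, at 7.8, 3.25 and 0.88, and in LCP number 1, at 7.16, 0.21 and 7.2. Over all unplaced models and crosses with a group mean of at least 1 in each tissue, the same number was highest in all 3 tissues in 9 of 62 cases (14.5%), against 15.3% for placed models. The number that was lowest was not counted in this way, and no test was run. With 3 libraries in a group, some such matches occur without any link between tissues. Scaffold108.1 and Scaffold1.39 were picked as examples of this pattern after their values were seen. Over all IDs tested, a library correlated best with its own number in another tissue in 68 of 72 comparisons, each among 3 numbers. What a number marks is not stated in the labels.

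Presence above 0 was also counted by kind of fish. Of the 113 unplaced models, 17 (15.0%) were above 0 in at least 1 LP library and no LC library, 14 (12.4%) in LC and not LP, 75 (66.4%) in both and 7 (6.19%) only in hybrids. The shares of placed models were 2.39%, 2.78%, 93.0% and 1.78%. Within the class under 0.1, the unplaced shares were 30%, 26%, 30% and 14%, against 17.3%, 19.5%, 48.8% and 14.4%. Levels were not alike inside that class, where the median of the mean FPKM was 0.0111 for unplaced and 0.0256 for placed models, and the difference in shares was not tested. Among models that reached an FPKM of 1, 58 of 62 unplaced (93.5%) and 98.4% of placed models were listed in both species. A value of 0 at unknown depth does not show that a transcript is absent.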

How the data were processed

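The deposited table holds FPKM with 2 decimals, which the authors computed per ID and library, with 1 column for each of the 36 libraries, matched to the labels by title. Per the labels' protocols, polyadenylated RNA was captured on oligo(dT) beads and primed with random hexamers, and no strand-marking step is described. Reads passed through fastp, per the submitters' processing notes. The aligner, quantifier, genome build, annotation and treatment of reads with several matches were not given in the sources used here. Low values gave no whole-fragment steps (the fullest bin of library ratios held 6.76% to 26.9% of IDs), so no count test was run.

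The members and lists were chosen with earlier results of these data known, but the rule for members reads only their names. limma 3.58.1 in R 4.3.3 was fitted to log2(FPKM + 1) with a mean-variance trend, per tissue (4 groups) and over all 36 libraries (12 groups), on every ID with FPKM of at least 1 in at least 3 libraries of the fit. Tests were 2-sided, and p-values were Benjamini-Hochberg adjusted over all IDs tested. The code was tested on simulated data. Exact permutation of 3 against 3 libraries cannot give a p under 0.1 and was not used.

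Named models were the 12 with the highest mean FPKM, up to 3 called per direction, tissue and contrast, up to 4 of the highest tau per tissue, and the leading interaction calls. The rule named 24. For a contrast within a tissue, at most 2 per direction are printed with their difference, and for an interaction test the leading 3 are printed. Scaffold1.45, Scaffold5.17, Scaffold51.5, Scaffold4.14, Scaffold3.21, Scaffold4.9, Scaffold5.19, Scaffold1.41 and the scaffolds singled out were chosen after their values were seen. Alternatives were a pseudocount of 0.1, no filter, median-ratio scaling, quantile normalization, the replicate number as a block, a linear mid-parent, leaving out each library and, added after seeing the data, counting identical profiles once. Tables and figures used Python 3.11.15, pandas 2.3.3, numpy 2.4.6 and matplotlib 3.10.9.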

Additional observations from a re-analysis of the deposited data

Results flagged for a closer look

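The LC-minus-LP difference was tested between brain and liver, brain and muscle, and liver and muscle (limma over 36 libraries). Of 54 unplaced models, 5 (9.26%), 9 (16.7%) and 15 (27.8%) were called, beside 5.53%, 11% and 17.6% of all IDs. With identical profiles counted once, 5, 8 and 13 of 52 were called. The difference between these shares was not tested. The leading 3 of each are given as values, on the log2(FPKM + 1) scale. Between brain and liver the difference of differences was 1.45 for Scaffold1.42 (limma, adjusted p = 0.00374), 1.6 for Scaffold49.9 (limma, adjusted p = 0.00575) and 1.93 for Scaffold36.4 (limma, adjusted p = 0.0154). Scaffold49.9 was at 4.97 ± 0.163 in LP brain and 8.86 ± 3.82 in LC brain, and at 1.26 ± 0.338 in LP liver and 0.167 ± 0.101 in LC liver, so the species means stood in opposite order in the tissues.

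Between brain and muscle it was 3.09 for Scaffold4.11 (limma, adjusted p = 1.12e-04), 1.82 for Scaffold1.49.1 (limma, adjusted p = 0.0025) and 1.48 for Scaffold52.8.1 (limma, adjusted p = 0.00342). Between liver and muscle it was -1.61 for Scaffold91.2 (limma, adjusted p = 0.00212), 1.43 for Scaffold52.8.1 (limma, adjusted p = 0.00293) and 1.80 for Scaffold52.4 (limma, adjusted p = 0.00319). Scaffold4.11 in muscle and Scaffold91.2 in liver were at or near 0 in both species, so these differences carry the brain and muscle values alone.

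After median-ratio scaling the calls of Scaffold1.42 (limma, adjusted p = 0.142), Scaffold1.49.1 (0.0992), Scaffold52.8.1 (0.0617 and 0.102) and Scaffold52.4 (0.305) were lost. Those of Scaffold49.9, Scaffold36.4, Scaffold4.11 and Scaffold91.2 were not, although Scaffold91.2 lost its call with a pseudocount of 0.1 (limma, adjusted p = 0.0554).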

How the results depend on the processing

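Counts are of unplaced models called, with the share of all IDs called under the same setting in parentheses. For fits that left out 1 library that share was not tabulated, so those ranges show no trait of the unplaced models. Median-ratio scaling gave 2 (7.58%) in liver and 4 (36.8%) in muscle for hybrids minus mid-parent, 6 (21.3%) for LC minus LP in muscle, and 3 (4.85%) and 9 (8.85%) for the difference of LC minus LP of brain against muscle and liver against muscle. Quantile normalization gave 5 (3.28%) for LC minus LP in brain and 6 (24.2%) in muscle, 2 (7.38%) and 4 (31.1%) for the hybrids in liver and muscle, and 3 (4.52%), 3 (4.28%) and 6 (7.53%) for brain against liver, brain against muscle and liver against muscle. Without a filter the counts were 19 (28.6%) for LC minus LP in muscle and 8 (5.33%) for brain against liver. Leaving out 1 library gave 2 to 9, 6 to 11 and 6 to 12 for LC minus LP in brain, liver and muscle, 0 to 0, 6 to 11 and 6 to 14 for the hybrids, 0 to 0, 0 to 0 and 0 to 1 for LPC minus LCP, 43 to 45, 46 to 48 and 35 to 39 for brain minus liver, brain minus muscle and liver minus muscle, and 2 to 6, 8 to 11 and 10 to 16 for the differences of LC minus LP between tissues. The cause of these shifts was not tested.

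With the replicate block, LPC minus LCP in muscle gave 1 call (3.47%) in place of 0, and the call of Scaffold108.1 in muscle was the only one of a named model to be lost. The labels do not say what a number marks. In the fits per tissue the block was the number alone, shared over the kinds of fish, so it does not model a pairing over tissues. In the fit over 36 libraries the block was the number within a cross, shared over tissues. Deviations of same-numbered libraries correlated from -0.369 to 0.656 between crosses in brain, and from 0.0214 to 0.230 between tissues of a cross. All 36 of the latter were positive, but not all passed the 0.1 required of every pair, so the numbers were not used as pairs. In 68 of 72 comparisons, each among 3 numbers, a library correlated best with its own number in another tissue. This points the other way, and the main fits over 36 libraries leave any such pairing out. Over 33 pairs of a named model and a contrast, 696 of the alternative values kept direction and call. Of these, 559 came from fits that left out 1 library. Another 80 lost the call, 44 of them when a library was left out, and 0 changed sign. Most of the values kept thus come from fits that dropped only 1 library. The total does not measure how the calls held under rescaling. The unknown depth limits all low values.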

Other observations

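A few values fell outside the comparisons. Scaffold5.22 was at 15.6 in a single LPC liver library, number 2, and at or under 0.39 in the other 35. Scaffold49.10 in brain varied widely within LC, LPC and LCP. It stood at 21.5, 15.8 and 11.6 in LP, 10.5, 0 and 0 in LC, 15.6, 1.65 and 0 in LPC, and 13.9, 0 and 9.46 in LCP. Scaffold5.7 in liver ranged from 2.01 to 18.3 in LP and from 0.12 to 1.09 in LC, with 0.39 to 5.8 in LPC and 0.54 to 11.2 in LCP. Scaffold1.43 was above 0 in 5 libraries of the 36, at 4.61 in 1 LCP liver library and at most 1.05 in the others. These models were chosen after their values were seen, and no test is attached to them.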
